A study of Mus musculus with 6 samples.

Results

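Antibody genes were examined in the outer eye wall of aged 5XFAD and wild-type mice. The group consists of immunoglobulin heavy, kappa and lambda genes and of Jchain. A gene belonged to it when the platform annotation gave a probe set exactly 1 symbol, and that symbol was an immunoglobulin variable, joining or constant gene or Jchain. This gave 21 of the 22180 genes tested. They were 13 kappa variable segments, 1 kappa joining segment, 3 heavy variable segments, 1 lambda variable segment, 2 heavy-chain constant genes and Jchain. The rule itself uses names and no measured value, except that where a gene had several probe sets the one of highest mean over all 6 arrays was kept.

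Total RNA came from a dissection that keeps the pigment epithelium of the retina (RPE) together with choroid and sclera, that is, the pigmented layer under the photoreceptors, the vascular layer behind it and the outer fibrous wall. Heterozygous 5XFAD mice gave 3 samples. They carry transgenes with familial Alzheimer's disease mutations in human amyloid precursor protein and presenilin, driven by the neuronal Thy1 promoter. Non-transgenic wild-type littermates gave the other 3 samples, and all mice were 12 months old and untreated. The labels do not say whether each sample is 1 animal, and a p-value here reflects only how these samples vary, part of which may be technical.

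Antibodies are made of heavy chains and of kappa or lambda light chains. In each B cell a variable segment is joined to a joining segment, with a diversity segment between them in heavy chains, and the transcript is spliced to a constant gene. A cell and its descendants therefore use only a few segments out of a large repertoire, and plasma cells, the antibody-secreting end stage, transcribe theirs at very high levels. The joining chain links subunits of secreted IgM and IgA, the antibody of mucosal surfaces such as the conjunctiva and of tear glands.

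The arrays were alike in overall signal. The median log2 intensity of an array ran from 5.59 in wild type replicate 2 to 5.71, and arrays correlated at 0.981 to 0.990 within groups and 0.983 to 0.990 between groups. All 12 genes of an RPE marker list were measured, with Rpe65 at 12.23 to 12.78 and Ttr at 13.31 to 13.62 in the 6 arrays, as the tissue label says. App differed by 0.09 ± 0.13 (log2, 5XFAD minus wild type, ± SE) and Thy1 by 0.28 ± 0.12, neither past the threshold (limma, Benjamini-Hochberg adjusted p = 0.96 and 0.80). The probes were designed on mouse genes and may miss human transgene RNA, which limits this as a check of genotype. Over all genes 5 passed at an adjusted p under 0.05, all higher in 5XFAD (0.0225% of genes, limma with Benjamini-Hochberg adjustment). The count was 19 without wild type replicate 2 and 3 without wild type replicate 3, and after another quantile normalization the split was 6 higher and 1 lower.

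No immunoglobulin gene was among those that passed. The nearest was Igkv4-72, at an adjusted p of 0.090 (limma, Benjamini-Hochberg). At an unadjusted p under 0.05, 5 of the 21 genes were higher in 5XFAD (23.8%) and 0 were lower, where 2.89% of all genes were higher and 3.39% lower at that level (limma). The 5 were the kappa variable segments Igkv4-72, Igkv4-70, Igkv5-43 and Igkv1-133, and Jchain, with folds from 1.45 to 3.66. The log2 difference was positive in 14 genes and negative in 7, with a median of 0.20, against -0.01 over all genes. The median was 0.57 and 0.85 when the dimmest 30% and 50% of genes were left out, which kept 10 and 8 of the 21, and 0.11 without 5XFAD replicate 2 and also without wild type replicate 3. With 1 array left out, 4 to 7 genes were higher and 0 to 2 lower at that level, and the shares over all genes were not computed for those fits. In 3 genes every 5XFAD array lay above every wild-type array (14.3%), which 4.72% of all genes did, and in 0 every 5XFAD array lay below, which 6.62% of all genes did. In RNA from whole tissue, more cells of a type and more RNA per cell cannot be told apart.

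**Figure D1:**
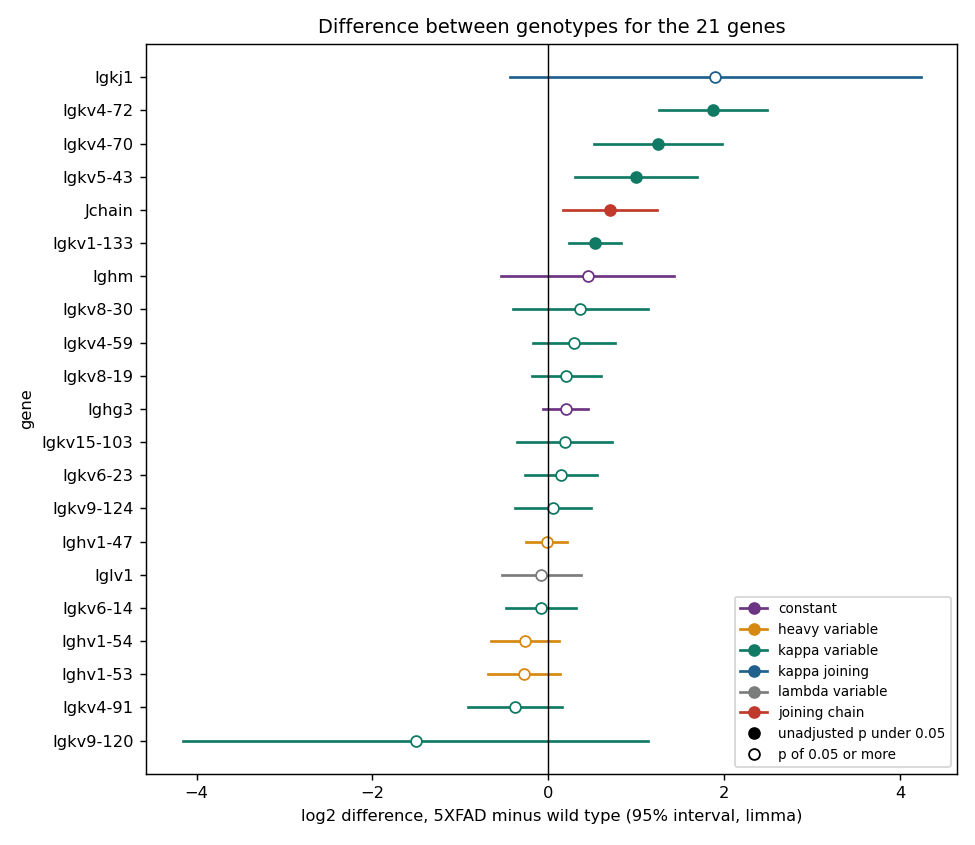
The log2 difference between 5XFAD and wild type is plotted for each of the 21 genes with its 95% interval from limma, coloured by class, with filled points for an unadjusted p under 0.05. The 5 filled points lie to the right of 0, and the intervals of Igkj1 and Igkv9-120 are the widest.

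Kappa variable segments, which encode most of the antigen-binding part of the kappa light chain, supplied 4 of these 5 genes. Igkv4-72 read 7.77, 8.56 and 8.86 (log2 intensity) in 5XFAD replicates 1 to 3 and 6.78, 6.11 and 6.68 in the wild-type replicates. The lowest 5XFAD array was thus above the highest wild-type array by more than the range of the wild-type group. The means were 8.39 ± 0.56 and 6.52 ± 0.36 (± SD, n = 3 per group), a 3.66-fold difference (1.87 ± 0.27 on the log2 scale, ± SE; limma, unadjusted p = 6.11e-05, Benjamini-Hochberg adjusted p = 0.090). It passed the adjusted threshold without 5XFAD replicate 1 (log2 difference 2.19; limma, Benjamini-Hochberg adjusted p = 0.026) and when arrays were centred on their medians (1.87; 0.049). In the other alternatives, the adjusted p ran up to 0.38.

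Igkv4-70 belongs to the same subgroup of kappa segments, and 2 kappa genes stand between it and Igkv4-72 in the RefSeq gene order. It read 7.76, 6.68 and 6.28 in 5XFAD and 5.75, 5.36 and 5.89 in wild type. The groups did not overlap, but the order of the 5XFAD arrays was the reverse of that for Igkv4-72, with replicate 1 highest here and lowest there. The difference was 1.24 ± 0.32 (2.37-fold; limma, Benjamini-Hochberg adjusted p = 0.46). Without 5XFAD replicate 1 it was 0.82.

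The other members of the Igkv4 subgroup differed less. Igkv4-59 read 3.80, 4.18 and 3.49 in 5XFAD and 3.81, 3.14 and 3.66 in wild type, with overlapping groups and a difference of 0.29 (95% interval -0.18 to 0.76). Igkv4-91 read 5.20, 5.01 and 5.70 against 5.96, 5.16 and 5.92, a difference of -0.38 (-0.91 to 0.16). Segments of a subgroup resemble each other in sequence, so that probes for 1 segment may bind transcripts of another. Whether the segments differ from each other in their response was not tested.

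**Figure D2:**
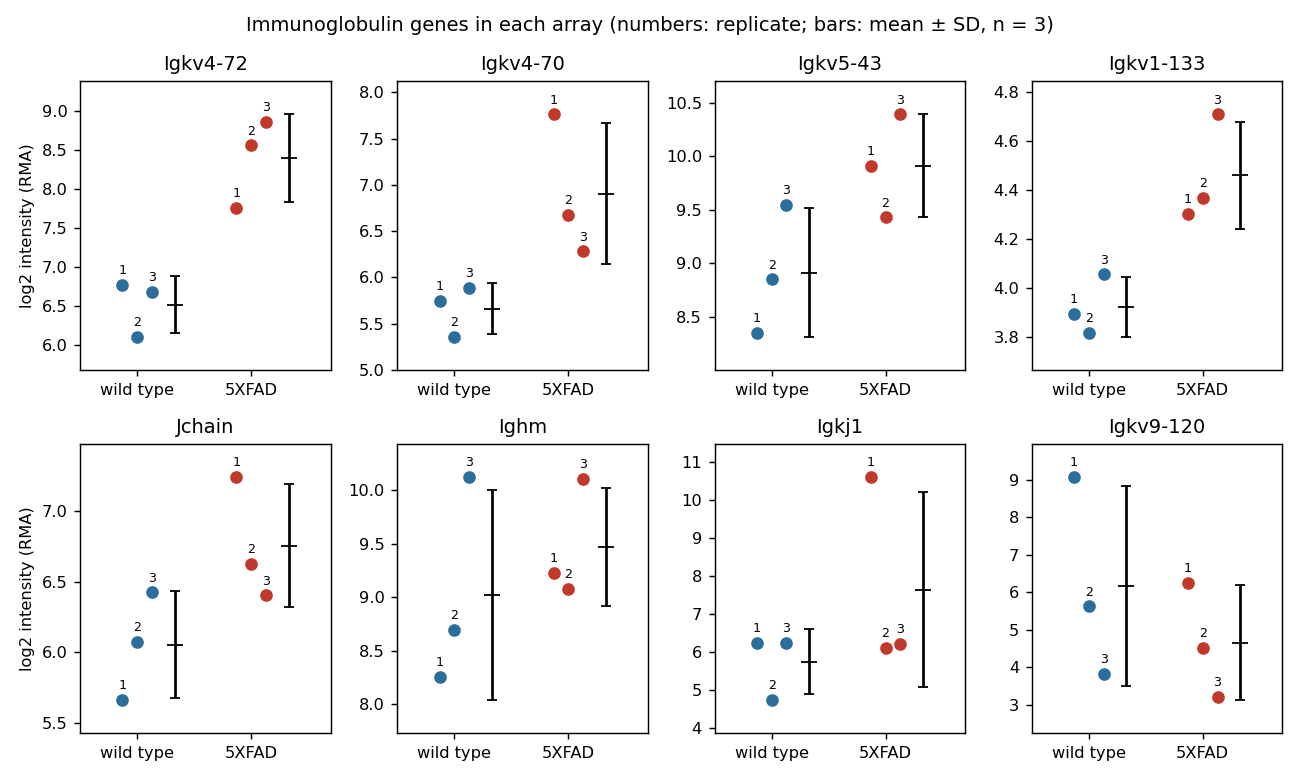
Each panel plots the log2 intensity of 1 gene in every array, with the replicate number above the point and the group mean ± SD (n = 3) beside it. All 3 5XFAD arrays lie above the wild-type arrays for Igkv4-72, Igkv4-70 and Igkv1-133, while for Igkj1 and Igkv9-120 a lone array stands far above the rest of its group.

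Igkv5-43 read 9.91, 9.43 and 10.39 in 5XFAD and 8.35, 8.85 and 9.54 in wild type. Wild type replicate 3 lay above 5XFAD replicate 2, so the groups overlapped, and the difference was 1.00 ± 0.31 (limma, Benjamini-Hochberg adjusted p = 0.60). This gene has 3 probe sets, and they disagree. In the second, wild type replicate 3 read 6.39 while the other arrays lay between 3.31 and 3.94. In the third, the same array read 8.58 and the others 2.97 to 5.10. The dimmer probe sets gave differences of -0.81 and -1.15, and the mean of all 3 gave -0.32, with the sign turned. The higher level in 5XFAD therefore describes only the brightest probe set.

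Igkv1-133 was dim, among the dimmest 30% of genes, where background compresses differences. It read 4.30, 4.37 and 4.71 in 5XFAD and 3.90, 3.82 and 4.06 in wild type. The groups did not overlap and the spread within each was small, giving a difference of 0.54 ± 0.13 (1.45-fold; limma, Benjamini-Hochberg adjusted p = 0.44).

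The remaining kappa variable segments gave no difference at an unadjusted p under 0.05. Igkv8-30 differed by 0.36 ± 0.34, Igkv8-19 by 0.21 ± 0.18, Igkv15-103 by 0.19 ± 0.24, Igkv6-23 by 0.14 ± 0.18, Igkv9-124 by 0.05 ± 0.19 and Igkv6-14 by -0.08 ± 0.18 (log2, ± SE). Of these only Igkv15-103 lay above the dimmest 30% of genes, with 5.82 to 6.82 in the 6 arrays and overlapping groups. In all, 11 of the 21 genes were in the dimmest 30%, and at such levels a change may not show.

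Jchain, encoding the joining chain that also marks antibody-secreting cells, read 7.24, 6.62 and 6.40 in 5XFAD and 5.67, 6.07 and 6.42 in wild type. The highest wild-type array lay just above the lowest 5XFAD array, and 5XFAD replicate 1 stood above the others. The means were 6.75 ± 0.43 and 6.06 ± 0.38 (SD, n = 3), a difference of 0.70 ± 0.24 (1.62-fold; limma, unadjusted p = 0.016, Benjamini-Hochberg adjusted p = 0.66). Without 5XFAD replicate 1 the difference was 0.46 (limma, unadjusted p = 0.061, Benjamini-Hochberg adjusted p = 0.98). Without wild type replicate 1 it was 0.51 (limma, unadjusted p = 0.064, Benjamini-Hochberg adjusted p = 0.89).

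Jchain is the 1 member of the 21 matched in the RefSeq promoter table, and its upstream sequence is shown because this gene marks the secreting stage that the segments do not. The 250 bases before its start lie at chr5:88527898-88528147 (GRCm38.p6, RefSeq, minus strand), printed from 5′ to 3′ with matches to the E-box CANNTG, the motif of basic helix-loop-helix factors, in capitals.
Jchain: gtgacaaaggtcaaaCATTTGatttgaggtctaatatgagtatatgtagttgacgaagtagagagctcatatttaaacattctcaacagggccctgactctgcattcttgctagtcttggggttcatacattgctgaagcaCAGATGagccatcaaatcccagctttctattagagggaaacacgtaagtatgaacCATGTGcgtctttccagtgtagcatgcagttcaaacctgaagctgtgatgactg
The window holds 3 E-box matches, and 66.2% of 32851 promoter windows of the same length hold at least 1. The octamer ATGCAAAT, a known element of immunoglobulin variable gene promoters, was searched on both strands and had 0 matches here, and 1.6% of windows hold it. The E-box matches do not overlap in this window, and a match in letters is not a site.

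The constant genes, which fix the antibody class, did not differ at an unadjusted p under 0.05 in the fit reported. Ighm, the constant gene of IgM, read 9.23, 9.07 and 10.10 in 5XFAD and 8.25, 8.69 and 10.12 in wild type. Replicate 3 was the highest array of each group, the groups overlapped, and the difference was 0.45 ± 0.44 (95% interval -0.54 to 1.43). With 1 array left out it ran from 0.06 (without wild type replicate 1) and 0.13 (without 5XFAD replicate 3) to 1.00 (without wild type replicate 3; limma, unadjusted p = 0.0093, Benjamini-Hochberg adjusted p = 0.76). The annotation gives the symbol Ighm to 7 probe sets, whose differences ran from -0.19 to 1.39, 5 of them positive and none at an unadjusted p under 0.05 (limma, lowest 0.063). Which part of the heavy-chain transcript each of them probes is not given in the annotation used. The mean of the 7 probe sets gave 0.35 (limma, unadjusted p = 0.049, Benjamini-Hochberg adjusted p = 0.80). With the replicate number as a block, the kept probe set gave 0.45 (limma, unadjusted p = 0.038, Benjamini-Hochberg adjusted p = 0.70). The largest difference was in a dim probe set that read 6.02, 5.02 and 3.03 in 5XFAD and 3.66, 2.92 and 3.34 in wild type, so that 5XFAD replicates 1 and 2 were high and replicate 3 was not. Ighg3, the constant gene of IgG3, read 4.51, 4.30 and 4.51 against 4.28, 4.09 and 4.35, a difference of 0.20 ± 0.11. Its second probe set gave -0.19.

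The heavy variable segments, all of the Ighv1 subgroup, had differences below 0. Ighv1-53 read 6.96, 6.46 and 6.94 in 5XFAD and 6.84, 6.94 and 7.41 in wild type, a difference of -0.28 (95% interval -0.69 to 0.13). Ighv1-54 differed by -0.26 ± 0.17 and Ighv1-47 by -0.02 ± 0.10, and both were near the bottom of the intensity range, at 2.29 to 3.07. The lambda segment Iglv1 differed by -0.08 ± 0.20. None of these 4 reached an unadjusted p under 0.05, and their groups overlapped.

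Several segments were very high in 1 array and not in the rest. Igkj1, a kappa joining segment, read 10.61 in 5XFAD replicate 1, 20.7-fold above the next array, and 6.11 and 6.21 in the other 5XFAD arrays. In wild type it read 6.24, 4.75 and 6.24. The group difference of 1.90 ± 1.04 lay within that spread (limma, Benjamini-Hochberg adjusted p = 0.87). With 1 array left out it ran from 0.42 (without 5XFAD replicate 1) to 2.67 (without 5XFAD replicate 2; limma, unadjusted p = 0.038, Benjamini-Hochberg adjusted p = 0.94). With the replicate number as a block it was 1.90 (limma, unadjusted p = 0.021, Benjamini-Hochberg adjusted p = 0.64).

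Igkv9-120 went the other way, with 9.07 in wild type replicate 1, 7.09-fold above the next array. The other wild-type arrays read 5.63 and 3.81, and the 5XFAD arrays 6.25, 4.52 and 3.22. The difference of -1.51 ± 1.17 was the most negative of the 21 (limma, Benjamini-Hochberg adjusted p = 0.92) and ran from -0.06 without wild type replicate 1 to -2.69 without wild type replicate 3 (limma, unadjusted p = 0.035, Benjamini-Hochberg adjusted p = 0.92), with -2.30 when 5XFAD replicate 1 was left out. The wild type replicate 3 signal in the dimmer Igkv5-43 probe sets, 5.47-fold and 11.2-fold above the next array, was likewise confined to 1 array. High arrays thus occurred in both genotypes and in different arrays for different segments.

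This spread within groups was large beside that over all genes. The within-group SD, pooled over both groups, exceeded 1 (log2) in 2 of the 21 genes (9.52%), Igkj1 and Igkv9-120, and in 14 of all 22180 genes (0.0631%). Counted over all probe sets with 1 symbol, it did so in 5 of 30 immunoglobulin probe sets (16.7%) and in 17 of 23521 in all (0.0723%). The median within-group SD was 0.35 for the 21 genes and 0.15 over all genes. Such spread was not confined to immunoglobulin genes. In a skeletal muscle list, taken up below, 2 of 12 genes exceeded 1 (16.7%) and the median was 0.79.

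**Figure D3:**
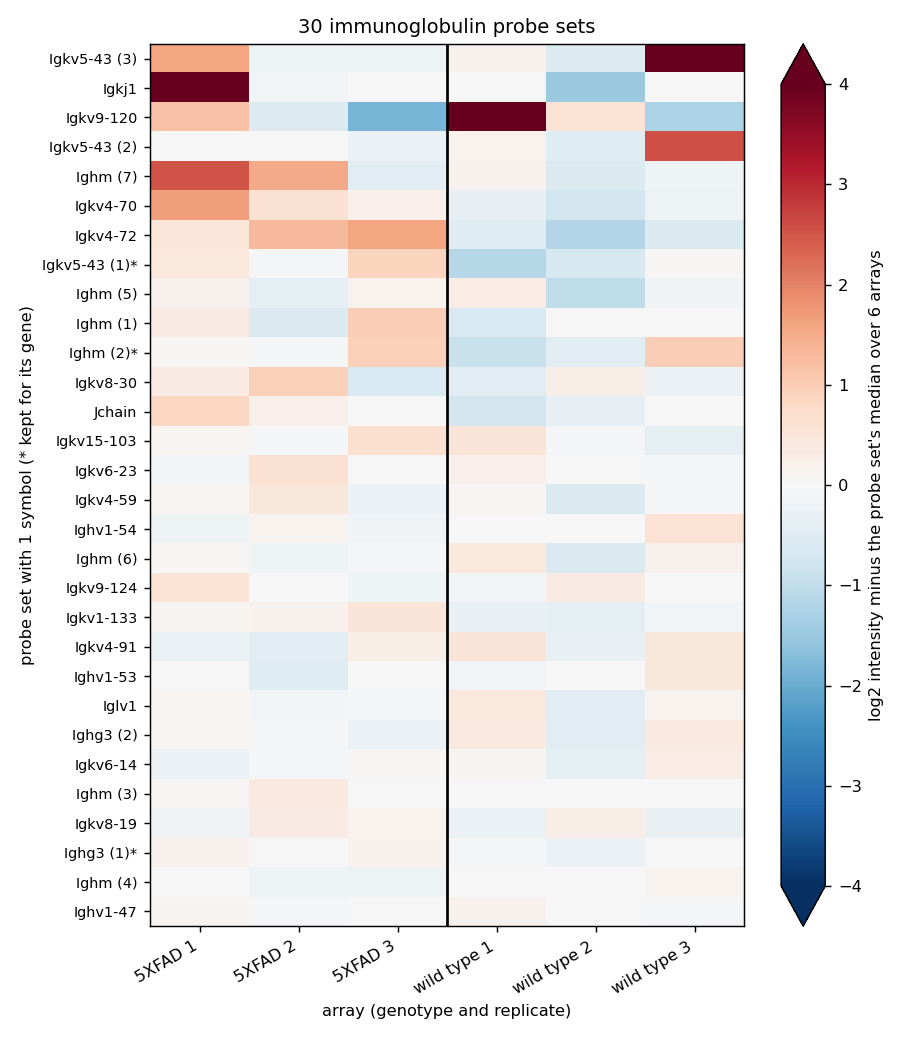
The 30 immunoglobulin probe sets with 1 symbol are rows and the 6 arrays columns, coloured by log2 intensity minus the probe set's median over the arrays and ordered by their largest deviation, with the colour scale ending at 4 on each side. The darkest cells fall in 5XFAD 1 (Igkj1), wild type 1 (Igkv9-120) and wild type 3 (Igkv5-43), and wild type 2 is mostly pale or blue.

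Across arrays the high values were not in 1 place. Among the 21 genes the highest array was 5XFAD replicate 1 for 5, wild type replicate 2 for 0 and each of the other arrays for 4. Over all genes 5XFAD replicate 1 was the highest array for 14.3% and wild type replicate 2 for 18.6%. Wild type replicate 2 was the lowest array for 8 of the 21, where it was the lowest for 17.3% of all genes. It also had the lowest median over all probe sets (5.59). Its median over the 21 genes, 4.67, was second to 5XFAD replicate 1 (4.75), but its mean over them, 4.82, was the lowest (5.09 to 5.56 in the others). Without that array 6 genes were higher and 2 lower at an unadjusted p under 0.05 (limma), the lower ones being Igkv4-91 (-0.64) and Iglv1 (-0.33). The shares over all genes at that level were not computed for this fit, in which 19 genes passed the adjusted threshold.

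Another 5 probe sets carry several symbols, all of them immunoglobulin genes, and name no gene. The brightest read 11.80, 11.05 and 11.51 in 5XFAD and 10.54, 9.97 and 11.07 in wild type, a difference of 0.93 ± 0.29 with overlapping groups. A second read 11.52, 10.26 and 9.34 against 9.78, 9.75 and 9.78. There the wild-type arrays were almost equal, and 5XFAD replicate 1 was high as it was for Igkj1, Igkv4-70 and Jchain. With these 5 counted as members, 7 of 26 were higher at an unadjusted p under 0.05 and 0 lower (limma). Shares over all genes were not computed for that fit.

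Genes of the cells that make antibodies were set beside the segments. For the counts in this and the following lists, 2.89% of all genes were higher and 3.39% lower at an unadjusted p under 0.05 (limma). Of 20 listed B cell genes 18 were measured, and 0 were higher or lower at an unadjusted p under 0.05 (limma), with a median difference of -0.05. The receptor component gene Cd79a read 4.80 ± 0.36 in 5XFAD and 4.80 ± 0.16 in wild type (SD, n = 3), and Ms4a1, which encodes CD20, 4.21 ± 0.17 and 4.31 ± 0.04. The mean of the B cell list lay between 5.40 and 5.46 in 5XFAD and between 5.41 and 5.57 in wild type.

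Of 20 plasma cell genes 19 were measured, and 2 were higher at an unadjusted p under 0.05 with 0 lower (limma). Irf4, a transcription factor gene of plasma cell differentiation, read 5.58, 5.69 and 5.59 in 5XFAD and 5.53, 5.15 and 5.15 in wild type, a difference of 0.34 ± 0.13 (limma, Benjamini-Hochberg adjusted p = 0.70). Sdc1, encoding syndecan 1, which marks plasma cells and is also abundant in epithelia, differed by 0.32 ± 0.13 (0.77). The groups did not overlap in either gene. Other named plasma cell genes differed less. Mzb1, a chaperone gene of antibody assembly, differed by 0.12 ± 0.12, the BCMA receptor gene Tnfrsf17 by 0.02 ± 0.12 and the secretory regulator gene Xbp1 by -0.03 ± 0.12. The list mean ran from 6.75 to 6.86 in 5XFAD and from 6.70 to 6.75 in wild type, and its median difference was 0.06.

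In each of the other lists of antibody biology at most 1 gene reached an unadjusted p under 0.05. That is too few to read against the shares over all genes. Of the surrogate light chain, recombination and class switch genes, 9 of 12 were measured and 1 was lower at an unadjusted p under 0.05, the DNA ligase gene Lig4 (-0.28 ± 0.10). Of 11 antibody receptor and transport genes 1 was higher, Fcer1g (0.51 ± 0.16), the signalling chain of Fc receptors, while Pigr, which carries IgA across epithelia, differed by -0.19 ± 0.11. Of the 15 measured genes of plasma cell survival and homing, out of 16 listed, 0 reached an unadjusted p under 0.05 in either direction (limma).

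Some markers of other cells also differed between the genotypes at an unadjusted p under 0.05. In the stratified surface epithelium list 7 of 11 measured genes were higher at an unadjusted p under 0.05 and 4 passed the adjusted threshold (limma), with a median difference of 1.10. Without wild type replicate 3, only 1 passed. Its mean was 6.32 to 6.96 in 5XFAD, highest in replicate 3, and 5.41 to 5.50 in wild type. The members that passed were Krt4 (3.21 ± 0.22), Krt13 (1.55 ± 0.16), Krt15 (3.55 ± 0.34) and Krt6a (1.86 ± 0.17), keratins of layered epithelium. Krt14 (1.10), Muc4 (1.24) and Krt19 (0.37) reached only the unadjusted level. Of the 11 measured genes, 9 had a positive difference and 2 a negative one, the lowest -0.185. Igkv4-72 and Igkv1-133 had their 5XFAD arrays in the same order as the epithelium mean, with replicate 1 lowest and replicate 3 highest. Igkv4-70 and Jchain had the reverse order, and Igkv5-43 had neither, with replicate 2 lowest. Whether these orders differ from chance was not tested.

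The skeletal muscle list had means of 7.67, 6.79 and 6.34 in 5XFAD replicates 1 to 3 and 5.62 to 7.20 in wild type. The groups thus overlapped in this mean. It was highest in 5XFAD replicate 1, the array where Igkj1, Igkv4-70 and Jchain were highest. Of its 12 genes 4 were higher at an unadjusted p under 0.05, namely Acta1 (1.13), Myh1 (1.97), Myh2 (1.24) and Mybpc1 (0.97). None passed the adjusted threshold (limma, lowest Benjamini-Hochberg adjusted p = 0.44), and 1 gene of the list had a negative difference (-0.55). The macrophage list mean was also highest in that array (8.98, against 8.65 to 8.82 in the other 5XFAD arrays and 8.68 to 8.73 in wild type). Of its 12 genes 2 were higher at an unadjusted p under 0.05, Tyrobp (0.29) and Itgam (0.25), and 0 lower (limma). The difference was negative in 2 of the 12. In the lowest of these (-0.21) every 5XFAD array lay below every wild-type array. The part of epithelium, muscle or macrophages in the immunoglobulin differences was not tested.

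In the T cell list 4 of 9 measured genes were lower at an unadjusted p under 0.05, where 3.39% of all genes were, and 0 higher (limma). They were Cd3g (-0.40 ± 0.16), Cd8a (-0.28 ± 0.11), Cd2 (-0.25 ± 0.09) and Zap70 (-0.29 ± 0.12), and 0 passed the adjusted threshold. Of the RPE list 9 of 12 were lower at the unadjusted level, from -0.25 for Ttr to -0.64 for Rrh, the others being Rpe65, Rlbp1, Lrat, Rdh5, Otx2, Stra6 and Slc16a8. In the exocrine gland list 1 of 8 was higher, the water channel gene Aqp5 (0.33 ± 0.10), with list means of 5.13 to 5.16 in 5XFAD and 5.03 to 5.22 in wild type. The blood list had 1 measured gene of 8, Slc4a1, a band 3 anion exchanger of red cells, which was lower at the unadjusted level (-0.38 ± 0.12).

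**Figure D4:**
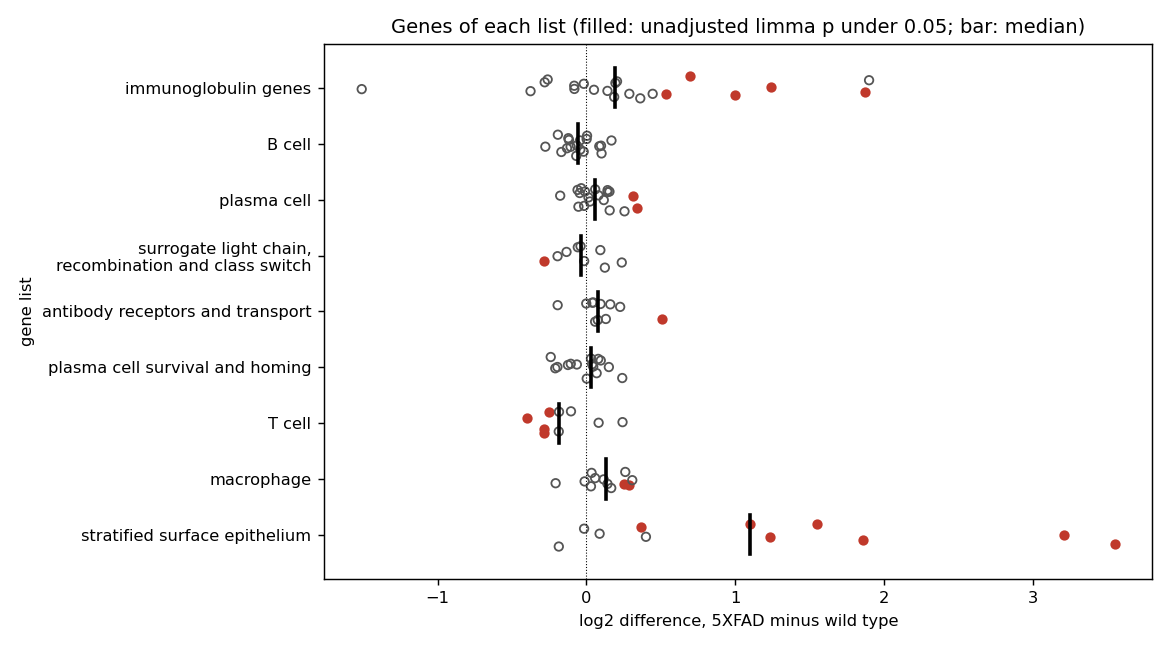
Each point is the log2 difference (5XFAD minus wild type) of 1 gene, in rows for the immunoglobulin genes and 8 gene lists, filled where the unadjusted limma p is under 0.05, with a bar at the median and random vertical offsets. The immunoglobulin genes reach differences beyond 1 in both directions, while the B cell genes all lie between -0.28 and 0.17.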

How the data were processed

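The authors deposited log2 intensities per probe set, which RMA produced in Affymetrix Expression Console 1.1 according to the labels (per the submitters' processing notes). This method subtracts background, equalises the distributions of the arrays and reduces each probe set to 1 log2 value. For build, filters and pooling, nothing was given in the sources used here. The 33793 probe sets were named from the platform annotation: 23521 had 1 symbol, 1814 several and 8458 none there. The brightest 1-symbol probe set of each gene was kept, which left 22180 genes, and all 21 immunoglobulin genes matched a RefSeq record.

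Groups and replicate numbers came from the sample titles. The genotypes were compared by two-sided moderated tests in limma 3.58.1 (R 4.3.3) without covariates, on 4 residual plus 5.23 prior degrees of freedom. P-values were adjusted by Benjamini-Hochberg across all genes, and 0.05 was the threshold. The members and lists were chosen with earlier results of these data known, so no test of a list is given. Named were all members, list genes at an unadjusted p under 0.05 and a few B cell and plasma cell markers, with Pigr, App and Thy1 named outside that rule. Replicates sharing a number did not deviate together (correlations -0.06, -0.05 and 0.13), so the numbers were not treated as pairs. In 20 simulations with 200 changed genes among 22180, limma recovered 20.7% of changes of 0.5 on the log2 scale, 78.7% of 1 and 97.9% of 2. A mean of 5.75 unchanged genes passed per simulation. The changed genes were drawn at random from all genes, whose median within-group SD was 0.15, against 0.35 for the 21 genes. The recovered shares may therefore be too high for the immunoglobulin genes. With 3 arrays per group, their number limits the precision.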

Additional observations from a re-analysis of the deposited data

Results flagged for a closer look

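A probe set outside the 21 genes separated the groups. It carries 3 immunoglobulin symbols (Ighg3, Ighv1-47 and Ighm) and so names no gene. It read 9.79, 8.57 and 8.90 in 5XFAD and 7.51, 7.51 and 8.22 in wild type, with every 5XFAD array above every wild-type array. The log2 difference was 1.33 ± 0.32 (limma over all 33793 probe sets, unadjusted p = 0.0031, Benjamini-Hochberg adjusted p = 0.68). The 1-symbol probe sets of the same genes differed by -0.19 to 1.39 and their groups overlapped.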

How the results depend on the processing

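Under the alternatives tried, 4 to 7 immunoglobulin genes (6 probe sets where each was tested on its own) were higher at an unadjusted p under 0.05, against 5 in the fit reported. The count of lower ones, 0 there, was 1 with array weights, 2 with the replicate number as a block (Igkv4-91 and Igkv9-120) and 0 to 2 with 1 array left out. Shares over all genes at that level were not computed for these alternatives. The median difference was 0.57 and 0.85 without the dimmest 30% and 50% of genes, where 10 and 8 members were left, and 0.11 to 0.28 with 1 array left out. Over all genes the adjusted count of 5 became 9 after median centring, 8 without the dimmest 30%, 9 with a robust, trended prior and 8 with array weights. With 1 array left out it ran from 3 (without wild type replicate 3) to 19 (without wild type replicate 2). With the replicate block 6 genes passed over all, 7 immunoglobulin genes were higher and no immunoglobulin gene passed the adjusted threshold (limma). With the mean of probe sets, the count of higher immunoglobulin genes stayed at 5, with Ighm in place of Igkv5-43. Signs turned for Igkv5-43 with the mean of its probe sets (-0.32) and for Ighv1-47 after quantile normalization (0.0023). With 1 array left out, differences crossed 0 for Igkv9-124 (-0.17 to 0.21), Igkv8-30 (-0.0011 to 0.78), Igkv6-23 (-0.077 to 0.28), Ighv1-47 (-0.060 to 0.045), Igkv15-103 (-0.030 to 0.43), Iglv1 (-0.33 to 0.12) and Igkv6-14 (-0.29 to 0.067). The cause was not tested. Dim signal limits 11 of the 21 genes.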
